A study of Mus musculus with 16 samples.

Results

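The genes described here are 40 proliferation genes, 16 that act in S phase and 24 that act in G2 and mitosis (G2/M), in primary mammary tumors of mice with and without a gene trap in *Resf1*. They were listed by symbol from what is known of their place in the cell cycle, and measured tumor values were no part of the rule. The list was nonetheless chosen with earlier results of these data known. All 40 had a row among the 23609 genes of the table, and all 40 were among the 21034 genes whose mean value was at least 10 and which were tested. The wildtype x PyMT group carried the polyoma middle T antigen under the MMTV promoter, which drives it in the mammary epithelium, and 2 intact copies of *Resf1*. The gene trap x PyMT group carried the same transgene and was *Resf1* +/-: 1 copy is interrupted in exon 1 by a lentiviral trap that encodes EGFP joined to cre, so that this copy yields only a shortened transcript. The trap strain was on a C57BL/6 background and was crossed to FVB/MMTV-PyMT, so the tumors came from F1 littermates, and they were collected at the humane endpoint with no treatment. The labels give 16 tumors, 8 per group, without ages. The values come from 5 wildtype and 5 gene trap tumors, each named here by its replicate number. Every value is a normalized read count per gene, scaled by the authors so that tumors can be compared.

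Cells copy their genome in S phase and divide it in mitosis, and the genes for each task are switched on in turn. S-phase genes are induced at the end of G1, when E2F factors are released from the retinoblastoma protein. G2/M genes peak later, under B-MYB, FOXM1 and the MuvB core, and are held down in resting cells by the DREAM complex. In mammary tumors the level of both sets is a common readout of how many cells are cycling. Among the 16 S-phase genes, *Cdc6* and *Cdt1* load the replicative helicase, *Mcm2* to *Mcm7* and *Gins2* are parts of that helicase, and *Pola1*, *Pcna* and *Fen1* prime, clamp and process the new strands. *Rrm1*, *Rrm2* and *Tyms* make deoxynucleotides, and *Chaf1b* places histones behind the fork. Among the 24 G2/M genes, *Cdk1* with *Ccnb1* and *Ccnb2* starts mitosis, *Ccna2* is the cyclin of S phase and G2, *Foxm1* is a transcription factor of the set, and *Plk1*, *Aurka* and *Aurkb* are mitotic kinases. *Bub1*, *Bub1b* and *Ttk* act in the spindle checkpoint, *Cdc20* and *Ube2c* in the ubiquitin ligase that ends mitosis, and *Birc5* with *Aurkb* in the chromosomal passenger complex. *Kif11*, *Kif20a*, *Kif23*, *Cenpe*, *Cenpf*, *Tpx2*, *Nusap1* and *Hmmr* act on the spindle, the kinetochore or the cleavage furrow, *Top2a* untangles chromosomes and *Mki67* coats them.

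By count, the promoters of the 2 classes held different motif letters, which the choice of genes had not used. RefSeq promoter windows of the mouse assembly GRCm38.p6, 250 bases before to 50 bases after the transcription start, were found for 33 of the 40 genes, 14 S-phase and 19 G2/M. *Ccna2*, *Tpx2*, *Kif20a*, *Aurkb*, *Foxm1*, *Mcm4* and *Gins2* had no entry. The windows were searched on both strands for CCAAT (the NF-Y box), for TTTGAA (the cell cycle homology region, CHR, bound by MuvB) and for GCGGGAA, TTTGGCGC or TTTCGCGC (forms of the E2F site). A CHR was present in 14 of 19 G2/M windows (73.7%) and in 2 of 14 S-phase windows (14.3%; *Mcm2* and *Fen1*), against 20.2% of the 27025 genes in the promoter table. An E2F form was present in 9 of 14 S-phase windows (64.3%) and in 1 of 19 G2/M windows (5.26%; *Cdk1*), against 6.10% of the genes. CCAAT was present in 17 of 19 G2/M windows (89.5%), in 9 of 14 S-phase windows (64.3%) and in 41.1% of the genes. These shares are descriptions with no test, a match is not a bound site, and a gene with several starts counted as a match when any of its windows held the letters.

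**Figure D1:**
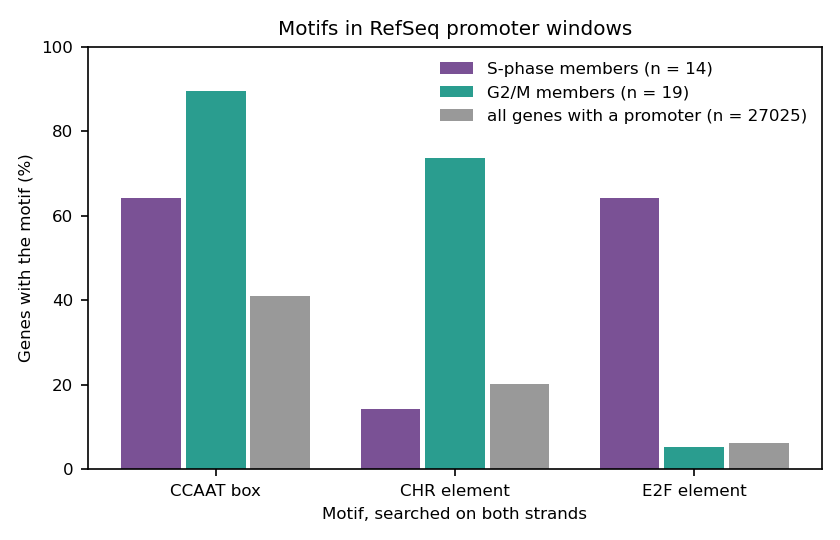
Share of genes, in percent, whose RefSeq promoter window holds each motif on either strand; bars are the 14 S-phase genes, the 19 G2/M genes and the 27025 genes of the promoter table. The CHR bar is highest for G2/M genes (73.7%) and the E2F bar for S-phase genes (64.3%).

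The stretches printed next show these matches in 5 genes: 2 G2/M genes with CCAAT and CHR, the 1 G2/M gene that also has an E2F form, and 2 S-phase genes with E2F forms and no CHR. Matched letters are in capitals, and each stretch is written 5′ to 3′ on the gene's strand. *Mki67* (chr7:135716460-135716579, minus strand) is shown from 200 to 80 bases before its start, and the others end at the start: *Cdc20* (chr4:118437344-118437463, minus strand), *Cdk1* (chr10:69352913-69353052, minus strand), *Mcm5* (chr8:75109349-75109508, plus strand) and *Mcm6* (chr1:128359706-128359825, minus strand).
Mki67: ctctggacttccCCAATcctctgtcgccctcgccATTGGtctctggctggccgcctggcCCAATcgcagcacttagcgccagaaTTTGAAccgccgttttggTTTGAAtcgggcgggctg
Cdc20: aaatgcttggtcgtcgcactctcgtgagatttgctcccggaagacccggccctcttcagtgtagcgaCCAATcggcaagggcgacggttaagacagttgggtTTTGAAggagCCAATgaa
Cdk1: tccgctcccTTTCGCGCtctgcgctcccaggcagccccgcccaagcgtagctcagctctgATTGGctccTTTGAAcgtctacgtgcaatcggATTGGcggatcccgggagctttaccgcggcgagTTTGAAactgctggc
Mcm5: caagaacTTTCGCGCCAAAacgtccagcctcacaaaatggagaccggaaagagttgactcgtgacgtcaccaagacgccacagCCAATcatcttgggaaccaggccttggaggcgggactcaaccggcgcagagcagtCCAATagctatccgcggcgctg
Mcm6: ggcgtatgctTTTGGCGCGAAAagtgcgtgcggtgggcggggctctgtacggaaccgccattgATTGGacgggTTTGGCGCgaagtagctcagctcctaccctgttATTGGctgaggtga
In *Mki67* the CHR letters begin 116 and 98 bases before the start, downstream of 3 CCAAT boxes. In *Cdc20* a single CHR lies 18 bases before the start. *Cdk1* has CHR letters at 71 and 15 bases and TTTCGCGC at 131 bases before the start. In *Mcm5* and *Mcm6* a pair of E2F forms on opposite strands overlap in 1 run of capitals, and *Mcm6* has another at 47 bases.

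*Resf1*, the trapped gene, did not pass the test over all genes. It read 4215.5, 4397, 3881, 4487 and 3517 in wildtype tumors 1 to 5 and 4029, 3066, 3686, 3392 and 3409 in gene trap tumors 1 to 5, and the groups overlapped: gene trap tumor 1 was above wildtype tumors 3 and 5. The means were 4099.5 ± 399.7 (SD, n = 5) against 3516 ± 361 (SD, n = 5), a log2 fold change of -0.22 ± 0.09 (SE; 95% interval -0.42 to -0.02; limma, unadjusted p = 0.0313, adjusted p = 0.9997; exact permutation p = 0.0635, two-sided, for this gene alone). The column totals ran from 31995078 to 42153593, the depth of reads is unknown, and the labels do not say whether tumors were sequenced together. Gene trap tumor 2 stood apart from the other 9: on the first principal component of all tested genes, 31.1% of the variance, it lay at 91.8 and the others between -18.6 and -4.78. All 10 epithelial markers, among them *Epcam*, *Krt8* and *Krt18*, were present in every tumor, with summed values of 124600 to 158270 in wildtype and 125310 to 156110 in gene trap tumors. The tumors also held fibroblast markers (43776 to 95833 and 59593 to 135250), macrophage markers (13282 to 19031 and 13109 to 17432) and endothelial, lymphocyte, adipocyte, basal and skeletal muscle markers. In such bulk tissue, fewer cycling cells and less RNA of a gene per cycling cell cannot be told apart.

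No difference between the genotypes passed the test in any of the 40 genes. By limma, 0 of 40 had an adjusted p under 0.05, where the share over all 21034 genes was 0%, and 0 of 40 had an unadjusted p under 0.05, where the share was 2.28%. The fitted folds ran from 0.904 (*Mcm6*) to 1.12 (*Cdc6*), so 0 of 40 moved by over 1.2-fold, against 18.1% of all genes. That share is not matched for level, since all genes include those with low and noisy values. Standard errors reached 2.26 among all genes and 0.18 among the 40. In 0 of 40 genes did the 5 gene trap tumors lie wholly above or below the 5 wildtype tumors, against 0.528% of all genes. The median log2 fold change was -0.04 over the 16 S-phase genes, -0.05 over the 24 G2/M genes and 0.0047 over all tested genes. Over the 40 genes the lowest bound of a 95% interval was a fold of 0.712 (*Cenpf*) and the highest 1.43 (*Cdc6*). With 5 tumors per group, these values remain compatible with any change inside a gene's own interval. The labels list the tumors of a group as separate samples, and that the mice were littermates comes from the study's text. These p-values judge the difference between genotypes against the spread between tumors, which were treated as independent.

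Of the 40 genes, 29 were fitted lower in the gene trap group, 11 of 16 S-phase and 18 of 24 G2/M genes, where 48.6% of all genes were fitted lower. Since these genes vary together between tumors, as described further on, the 29 are not 29 separate observations, and the count followed single tumors. Without wildtype tumor 5 the G2/M genes fitted lower went from 18 to 5 of 24 and their median log2 fold change became 0.04. Without gene trap tumor 5 they were 10, and the S-phase genes fitted lower were 6 of 16. Without gene trap tumor 3 the G2/M genes fitted lower were 11. Without gene trap tumor 4 all 24 G2/M genes and 15 of 16 S-phase genes were fitted lower, and 1 of the 40, *Aurka*, reached an unadjusted p of 0.0417 by limma at a log2 fold change of -0.24.

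**Figure D2:**
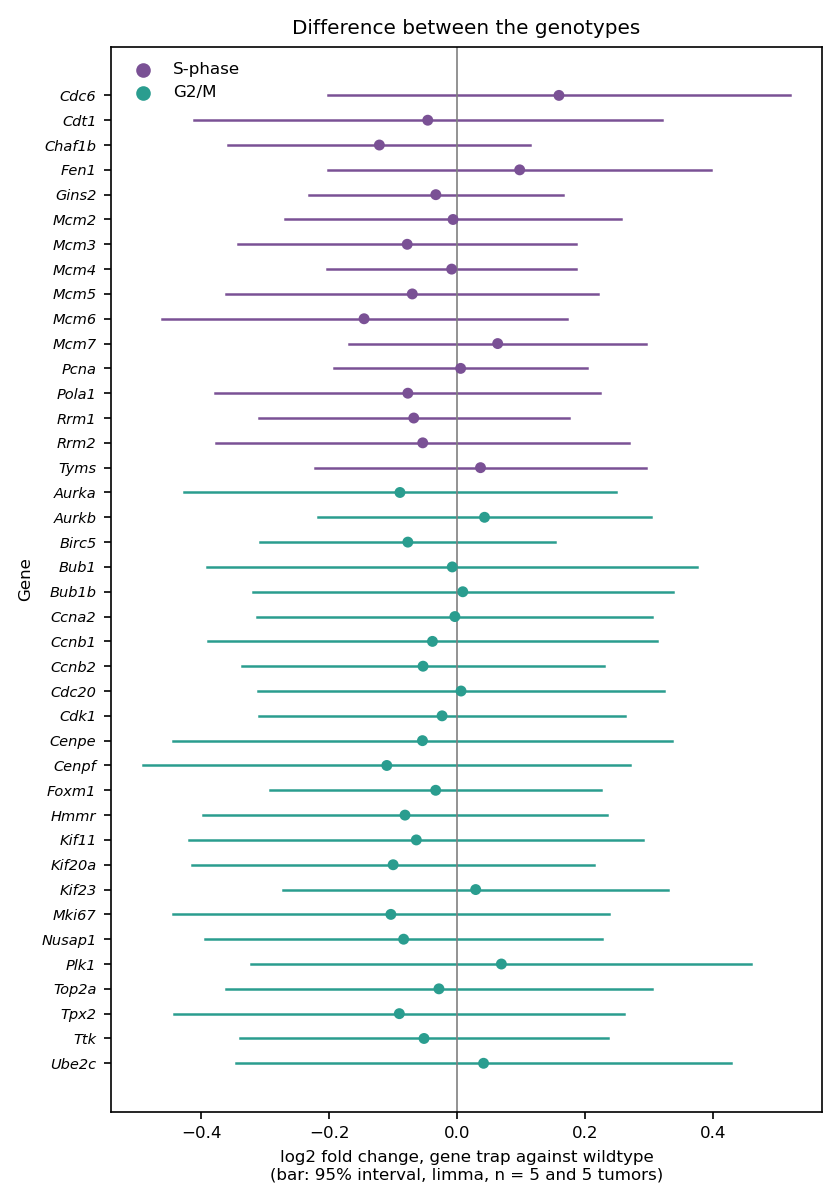
Log2 fold change of each of the 40 genes, gene trap against wildtype (point), with its 95% interval (bar) from limma over 5 and 5 tumors; S-phase genes are purple and G2/M genes green. Every interval crosses 0, and the points lie between -0.15 (*Mcm6*) and 0.16 (*Cdc6*).

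Among the S-phase genes, the helicase loader *Cdc6* and the helicase subunit *Mcm6* had the fitted differences farthest from 0, in opposite directions. *Cdc6* read 397, 499, 469, 395 and 389 in wildtype tumors 1 to 5 and 570.0, 363, 440.1, 682 and 399 in gene trap tumors 1 to 5. Gene trap tumors 1 and 4 were above every wildtype tumor and gene trap tumor 2 was below them all (log2 fold change 0.16 ± 0.17 (SE), exact permutation p = 0.405). *Mcm6* read 3107, 2506, 3179, 2651 and 3449 in wildtype tumors 1 to 5 and 2985.5, 1956, 2494, 3558 and 2638 in gene trap tumors 1 to 5. Gene trap tumor 2 was lowest and gene trap tumor 4 highest of the 10 (log2 fold change -0.15 ± 0.15 (SE), exact permutation p = 0.405). The other 5 Mcm subunits measured were *Mcm2*, *Mcm3*, *Mcm4*, *Mcm5* and *Mcm7*, and their log2 fold changes lay between -0.08 (*Mcm3*) and 0.06 (*Mcm7*).

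*Mcm2* read 1598, 1496, 1639, 1626 and 1614 in wildtype tumors 1 to 5 and 1510.3, 1695, 1397, 2172 and 1295 in gene trap tumors 1 to 5. The 5 wildtype tumors lay close together (1595 ± 57.2 (SD, n = 5) against 1614 ± 346 (SD, n = 5); log2 fold change -0.0064 ± 0.12 (SE), exact permutation p = 0.968), and the spread of the gene trap group came from tumor 4 above and tumors 3 and 5 below. *Chaf1b*, the chromatin assembly subunit, had the smallest unadjusted p of the 40 (0.284, limma), and read 531, 586, 653, 510.3 and 609.5 in wildtype tumors 1 to 5 and 494, 483, 471, 621 and 593 in gene trap tumors 1 to 5. Gene trap tumors 1, 2 and 3 were below all wildtype tumors, while tumors 4 and 5 lay among them (log2 fold change -0.12 ± 0.11 (SE), exact permutation p = 0.254). The flap endonuclease *Fen1* read 1342, 1576, 1579, 1446 and 1634 in wildtype tumors 1 to 5 and 1525, 1949.7, 1328, 2153 and 1301 in gene trap tumors 1 to 5. Gene trap tumors 2 and 4 were above every wildtype tumor and tumors 3 and 5 below every one (log2 fold change 0.10 ± 0.14 (SE), exact permutation p = 0.540). The sliding clamp *Pcna* read 2681, 2422, 2722, 2509 and 2851 in wildtype tumors 1 to 5 and 2605, 2721, 2327, 3217 and 2429 in gene trap tumors 1 to 5, with gene trap tumor 4 highest and gene trap tumor 3 lowest (log2 fold change 0.0054 ± 0.09 (SE), exact permutation p = 0.960).

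In the G2/M genes the groups overlapped too, and in 20 of 24 wildtype tumor 5 and gene trap tumor 4 held the top 2 values; the other 4 were *Cdc20*, *Ube2c*, *Plk1* and *Foxm1*. *Mki67*, whose protein is the Ki-67 antigen scored by pathologists, read 16996, 12500, 17874, 15338 and 22013 in wildtype tumors 1 to 5 and 17151, 12381, 14763, 19944 and 14322 in gene trap tumors 1 to 5. Wildtype tumor 5 was highest, and gene trap tumor 2 and wildtype tumor 2 were lowest and nearly equal (16944 ± 3496 (SD, n = 5) against 15712 ± 2911.5 (SD, n = 5); log2 fold change -0.10 ± 0.16 (SE), exact permutation p = 0.563). The B-type cyclin *Ccnb1* read 1081, 977, 1289, 993 and 1591 in wildtype tumors 1 to 5 and 1129, 1151, 936, 1563 and 989 in gene trap tumors 1 to 5. Its highest tumor was wildtype 5 and its second was gene trap 4 (log2 fold change -0.04 ± 0.16 (SE), exact permutation p = 0.841). Its kinase partner *Cdk1* read 1452, 1349, 1581, 1419.6 and 1801.5 in wildtype tumors 1 to 5 and 1529, 1449, 1219, 2042 and 1323 in gene trap tumors 1 to 5. In *Cdk1* those places were exchanged, and the group means were 1520.5 ± 178 (SD, n = 5) against 1512 ± 319 (SD, n = 5) (log2 fold change -0.02 ± 0.13 (SE), exact permutation p = 0.873). *Foxm1*, the transcription factor, read 538, 534, 605, 595 and 593 in wildtype tumors 1 to 5 and 573, 567, 537, 717 and 435 in gene trap tumors 1 to 5. The wildtype tumors spanned a narrow range, and gene trap tumors 4 and 5 lay above and below it (log2 fold change -0.03 ± 0.12 (SE), exact permutation p = 0.754).

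*Birc5* had the smallest unadjusted p of the G2/M genes (0.481, limma), and read 1116, 1330.4, 1293, 1458 and 1476 in wildtype tumors 1 to 5 and 1285, 1264, 1139, 1540.2 and 1109.7 in gene trap tumors 1 to 5. Gene trap tumor 4 was highest and tumor 5 lowest, so the gene trap group enclosed the wildtype group (log2 fold change -0.08 ± 0.11 (SE), exact permutation p = 0.516). *Kif20a*, a kinesin of the cleavage furrow, read 1328, 1048, 1364, 1049 and 1644 in wildtype tumors 1 to 5 and 1199, 1168, 1065, 1543 and 1005.5 in gene trap tumors 1 to 5. Wildtype tumor 5 and gene trap tumor 4 were again its highest tumors (log2 fold change -0.10 ± 0.14 (SE), exact permutation p = 0.548). The kinetochore protein gene *Cenpf* read 3977, 2767, 3566, 3158 and 5120.1 in wildtype tumors 1 to 5 and 4064, 2761, 2941, 4422 and 2969.6 in gene trap tumors 1 to 5. Wildtype tumor 5 was highest, and wildtype tumor 2 and gene trap tumor 2 were lowest (log2 fold change -0.11 ± 0.17 (SE), exact permutation p = 0.587). The other 17 G2/M genes had log2 fold changes from -0.09 (*Tpx2*) to 0.07 (*Plk1*).

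Single tumors of a genotype lay farther apart than the genotype means. Gene trap tumor 4 had the highest value of 24 of the 40 genes (12 S-phase, 12 G2/M) and was among the top 2 tumors for 39 of 40, the exception being *Gins2*. Wildtype tumor 5 had the highest value of 11 genes, of which 10 were G2/M genes and 1 was the polymerase subunit *Pola1*. Gene trap tumor 2 was highest for *Tyms*, *Gins2*, *Plk1* and *Ube2c*, and wildtype tumor 3 for *Chaf1b*. At the other end, gene trap tumor 5 was lowest for 17 genes, gene trap tumor 2 for 9 and gene trap tumor 3 for 8. The highest tumor exceeded the lowest by 1.25-fold for *Gins2*, the narrowest range, and by 1.95-fold for *Ube2c*, the widest. Over the 10 tumors the median SD of a gene's log2 value was 0.200 for S-phase genes, 0.254 for G2/M genes and 0.251 for all tested genes. Without gene trap tumor 2 these medians were 0.193, 0.251 and 0.210.

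**Figure D3:**
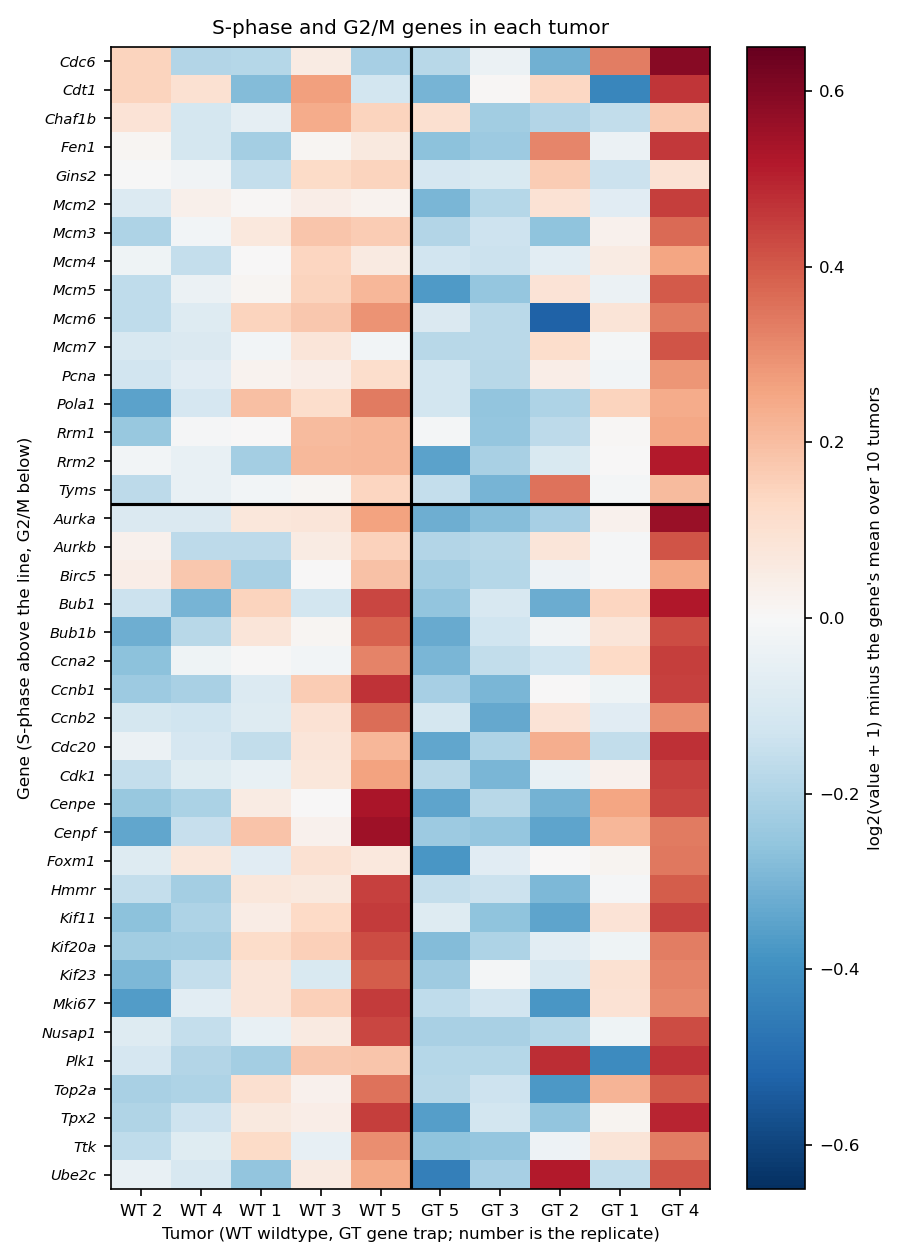
Log2(value + 1) of each of the 40 genes in each of the 10 tumors, minus that gene's mean over the tumors; red is above and blue below the mean, S-phase genes stand above the black line and G2/M genes under it, and tumors are ordered by G2/M score inside each genotype. The columns of wildtype tumor 5 and gene trap tumor 4 are red for all 24 G2/M genes, and that of gene trap tumor 5 is blue for all 24.

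To compare the classes tumor by tumor, each gene's log2(value + 1) was centered on its mean over the 10 tumors and averaged over the 16 S-phase genes (S-phase score) and over the 24 G2/M genes (G2/M score). The S-phase score was -0.04, -0.08, 0.13, -0.06 and 0.11 in wildtype tumors 1 to 5 and -0.02, -0.03, -0.18, 0.34 and -0.17 in gene trap tumors 1 to 5. The G2/M score was -0.01, -0.17, 0.05, -0.13 and 0.35 in the wildtype tumors and 0.02, -0.09, -0.19, 0.41 and -0.25 in the gene trap tumors. From lowest to highest tumor the S-phase score spanned 1.44-fold and the G2/M score 1.57-fold. The genotype means were close beside that spread: 0.0108 ± 0.100 (SD, n = 5) against -0.0108 ± 0.213 (SD, n = 5) for S phase and 0.0187 ± 0.205 (SD, n = 5) against -0.0187 ± 0.259 (SD, n = 5) for G2/M. The gene trap minus wildtype difference of the G2/M score, -0.04, became 0.04 without wildtype tumor 5 and -0.14 without gene trap tumor 4.

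The G2/M score minus the S-phase score, called the balance here, was highest in wildtype tumor 5. It was 0.04, -0.09, -0.08, -0.07 and 0.24 in wildtype tumors 1 to 5 and 0.04, -0.05, -0.01, 0.06 and -0.08 in gene trap tumors 1 to 5. Wildtype tumor 5 thus had G2/M genes well above its S-phase genes: all 24 G2/M genes and 13 of 16 S-phase genes were over their own means, and the G2/M score stood at a fold of 1.27 and the S-phase score at 1.08. In gene trap tumor 4, where all 40 genes were over their means, the scores stood at folds of 1.32 and 1.27. Without wildtype tumor 5 the balance of the other 9 tumors spanned 0.15, against 0.33 with it. With scores taken as the log2 of summed values, which weight high genes more, the balance was 0.25 in wildtype tumor 5 and -0.18 in gene trap tumor 2, and it spanned 0.42. The balance differed by -0.02 between the genotypes (0.00787 ± 0.137 wildtype, -0.00787 ± 0.0589 gene trap, SD, n = 5 each), and no p is given for a score over genes chosen as a set. Scaling of whole columns shifts both scores of a tumor alike and leaves its balance as it is, but it moves the scores. With columns scaled to equal totals the G2/M score was 0.47 in wildtype tumor 5 and 0.37 in gene trap tumor 4, so the order of these tumors at the top depends on the scaling.

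**Figure D4:**
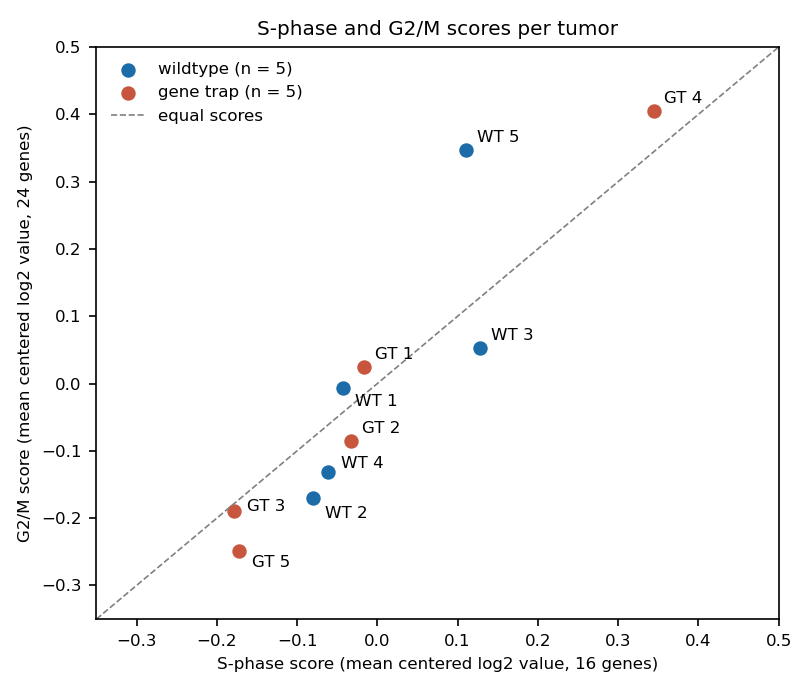
S-phase score (horizontal) against G2/M score (vertical) of each tumor, both on the centered log2 scale; blue points are the 5 wildtype and red points the 5 gene trap tumors, and the dashed line marks equal scores. Wildtype tumor 5 lies 0.24 above the line, and the other 9 tumors lie within 0.09 of it.

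Markers of other cells moved with some of these tumors. Wildtype tumor 5 had the highest sum of the 7 skeletal muscle markers in the table (14272, the other 9 tumors between 885 and 6167), of the 10 endothelial markers (6452, others from 3460 to 5887) and of the 10 macrophage markers (19031). Gene trap tumor 4 had epithelial (143430) and fibroblast (69905) sums inside the range of the other tumors and the lowest macrophage (13109) and basal (8528) sums. Over the 10 tumors the sum of the 6 adipocyte markers had the largest Spearman's rho with the G2/M score among the marker lists (0.82). Pearson's r of its log2 sum was 0.58, and its highest tumor was wildtype 3 (10552), with gene trap tumor 4 at 6185. The rho of the fibroblast sum was 0.52, that of the epithelial sum -0.28, and the other lists lay between -0.32 (basal) and 0.32 (skeletal muscle). No marker list was at 0 in any tumor, and the part of other cells in the scores was not tested.

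Values of the 40 genes varied together between tumors. Over the 10 tumors the median Pearson's r was 0.62 for the 120 pairs of S-phase genes, 0.82 for the 276 pairs of G2/M genes and 0.69 for the 384 pairs across the classes, while over all pairs of tested genes it was -0.00375. All 276 G2/M pairs, 118 of the S-phase pairs and 381 of the mixed pairs were positive. The S-phase and G2/M scores had r = 0.914 and rho = 0.964, and r = 0.930 without the tumors farthest from the median S-phase score, gene trap 4 and wildtype 3. Without gene trap tumor 2, the library that stands apart, the medians were 0.73, 0.87 and 0.77, and without gene trap tumor 4 the S-phase median was 0.43 and the G2/M median 0.76. These values are descriptions: the points share their normalization and the tumors of both genotypes, and no p is given.

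Single genes differed in how closely they followed their class. *Nusap1* (r = 0.968), *Tpx2* (0.964) and *Cdk1* (0.961) were nearest to the mean of the other G2/M genes, and *Rrm2* (0.942) and *Pcna* (0.938) to that of the other S-phase genes. *Cdt1* (0.500), *Cdc6* (0.505), *Plk1* (0.510) and *Chaf1b* (0.537) followed theirs least over the 10 tumors. Without gene trap tumor 2, *Plk1* rose to 0.735, while *Cdt1* (0.527), *Cdc6* (0.535) and *Chaf1b* (0.566) stayed lowest. *Tyms* went from 0.589 to 0.889, *Ube2c* from 0.586 to 0.870 and *Mcm6* from 0.608 to 0.861. *Cdk1* had nearly the same r to both classes (0.961 and 0.960). Of the 16 S-phase genes, 5 (*Pola1*, *Mcm6*, *Mcm3*, *Rrm1* and *Tyms*) had a higher r with the G2/M mean than with the mean of their own class; the widest gap was in *Pola1* (0.837 and 0.643). Of the 24 G2/M genes, 6 (*Cdc20*, *Aurkb*, *Plk1*, *Birc5*, *Ube2c* and *Foxm1*) had a higher r with the S-phase mean, the widest gap being in *Plk1* (0.670 and 0.510). Without gene trap tumor 2 the counts were 4 S-phase genes, *Mcm3* no longer among them, and 7 G2/M genes, with *Aurka* added.

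In 4 of the tumors the values of the 40 genes varied with transcript length at a Spearman's rho of 0.50 or beyond in size. In gene trap tumor 2 each gene's log2 value, minus its mean in the other 9 tumors, fell with the length of its longest transcript (Spearman's rho -0.60 over the 40 genes, -0.29 over 14545 protein-coding genes). The 15 genes with transcripts under 3000 bases had a median of 0.09 there and the 25 longer ones -0.21. *Ube2c* at 0.57 and *Plk1* at 0.53 were the highest, and *Mcm6* at -0.58 and *Mki67* at -0.42 the lowest. In gene trap tumor 1 the relation ran the other way (rho 0.61 over the 40 genes, 0.30 over all protein-coding genes), and it was 0.50 in wildtype tumor 1 and -0.52 in wildtype tumor 2. In wildtype tumor 5 rho was 0.35 over the 40 genes, 0.56 over the 24 G2/M genes and 0.28 over the 16 S-phase genes. Gene trap tumor 3 had a rho of 0.19 over the 40 genes and 0.30 over all protein-coding genes. The classes had like transcript lengths, with medians of 3462.5 bases for S-phase and 3473.5 bases for G2/M genes. A step added after the data were seen corrected each tumor's values for their trend with length over all tested genes. The S-phase score of gene trap tumor 2 went from -0.03 to -0.06, and the balance of wildtype tumor 5 stayed at 0.24. In wildtype tumor 5 rho was only 0.05 over all protein-coding genes, so the step had little trend to remove there. A relation with length particular to the 40 genes is not removed by it. What set these relations was not tested.

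**Figure D5:**
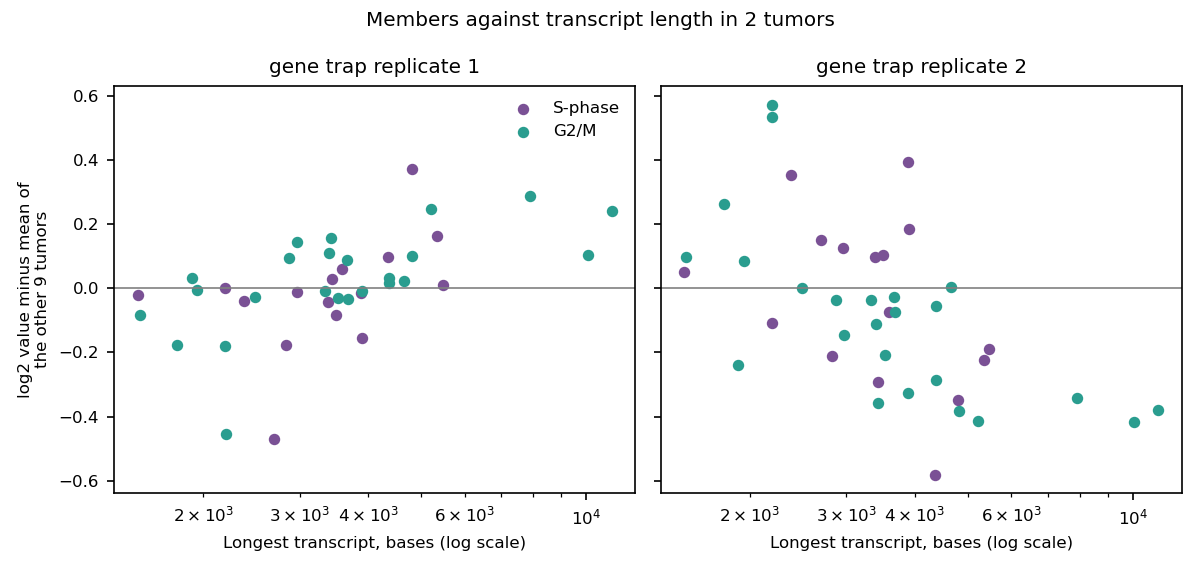
Log2 value of each of the 40 genes in gene trap tumor 1 (left) and gene trap tumor 2 (right), minus its mean in the other 9 tumors, against the length of its longest transcript in bases (log axis); S-phase genes are purple and G2/M genes green. The points climb with length on the left (rho 0.61) and fall with it on the right (rho -0.60).

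Per kilobase of longest transcript, the mean normalized value over the 10 tumors was highest for *Pcna* (1745), *Mki67* (1623) and *Top2a* (1532), and lowest for *Cdc6* (95.8), *Foxm1* (122) and *Cdt1* (162). The levels of *Ccna2* (930.1), *Cdc20* (876), *Rrm2* (748) and *Rrm1* (733) per kilobase came next under the leading 3. This order depends on the longest annotated transcript, 1518 bases for *Pcna* and 4802 for *Cdc6*. Which transcript the tumors express was not tested. *Pcna*, *Ccnb1*, *Ccnb2* and *Tyms* have pseudogene rows in the table that can share reads with them, so their levels are uncertain. *Pcna-ps2* read 689 to 1319.5, *Ccnb1-ps* 326 to 551, *Ccnb2-ps* 37.4 to 57.9 and *Tyms-ps* 15.0 to 37.1 over the tumors.

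Other genes of these pathways were counted from lists written with earlier results of these data known. Of 57 further replication genes, 35 were fitted higher and 22 lower in gene trap tumors (median log2 fold change 0.01), 0 passed at adjusted p under 0.05, and 2 passed at the unadjusted level, both higher, where the share over all genes was 2.28%. The mismatch repair gene *Msh6* read 2129, 1937.5, 1998, 1893 and 1925 in wildtype tumors 1 to 5 and 2371.5, 2344, 2166, 2357 and 2079.8 in gene trap tumors 1 to 5 (log2 fold change 0.19 ± 0.07, SE; limma unadjusted p = 0.0116, adjusted p = 0.9997). Its groups overlapped at wildtype tumor 1. The helicase subunit *Gins3* and the methylation maintenance gene *Uhrf1* were next, at 0.27 ± 0.14 and 0.22 ± 0.12 (SE). Of 73 further mitotic genes, 27 were fitted higher and 46 lower (median -0.02), and 0 passed at either level. Those with the smallest p were *Cks1b* (0.27 ± 0.13, SE), *Cdca3* (-0.22 ± 0.14), *Cenpi* (-0.20 ± 0.15) and *Kpna2* (-0.28 ± 0.21).

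Of 22 genes for E2F, retinoblastoma family, MuvB and DREAM proteins, 21 were tested, 8 were fitted higher and 13 lower (median -0.01), and 0 passed at either level. *Rbl1* and *Rbl2*, which encode pocket proteins of DREAM, were at -0.12 ± 0.10 each (SE), the MuvB subunit *Lin9* at -0.12 ± 0.11 and *E2f4* at -0.07 ± 0.08. Of 64 histone genes taken by symbol as replication-dependent, whose copies are near-identical and whose values are therefore uncertain, 33 were fitted higher and 31 lower (median 0.01). The linker histone genes *Hist1h1c* (-0.63 ± 0.28, SE) and *Hist1h1t* (-0.79 ± 0.36) passed at the unadjusted level only, 2 of 64 against 2.28% of all genes (limma unadjusted p = 0.0437 and 0.0465, adjusted p = 0.9997 for each). *Hist1h3e* (-0.34 ± 0.17) and *Hist1h3h* (-0.37 ± 0.21) did not. The values of *Hist1h1t* were near the filter of 10, with means of 16.9 in wildtype and 9.86 in gene trap tumors. *Hist1h1c* read 10469 and 13642 in wildtype tumors 1 and 4, and 4435 to 7295 in the other wildtype tumors. In the gene trap tumors it read 3378 to 6101.

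Across the tumors, scores made in the same way from these lists followed the 40 genes to unlike degrees. The score of the 57 replication genes had r = 0.945 with the S-phase score and 0.930 with the G2/M score, and that of the 73 mitotic genes had 0.926 and 0.995. For the regulator genes r was 0.813 and 0.735. For the histone genes r was 0.25 and 0.06, with gene trap tumor 1 lowest (-0.66) and gene trap tumor 2 highest (0.44), an order that neither class had. Among single genes outside the 40, the 10 most like the G2/M mean were *Dlgap5* (r = 0.979), *Melk* (0.976), *Exo1* (0.974), *Ncapg* (0.974), *Ckap2l* (0.967), *Ercc6l* (0.966), *Cdkn3* (0.963), *Rad54l* (0.961), *Wdr76* (0.957) and *Kif20b* (0.952) over 10 tumors. Of these, *Dlgap5*, *Ckap2l* and *Kif20b* act on the spindle, *Ncapg* in condensin, and *Exo1* and *Rad54l* in DNA repair. The 5 most like the S-phase mean were *Tspan14* (0.962), *Cdca5* (0.962), *Cdkn3* (0.962), *Gins1* (0.955) and *Gm26737* (0.946). Of the 100 genes most like the G2/M mean, 35 were among the 73 mitotic genes, 11 among the 57 replication genes and 0 among the 21 regulators, lists that make up 0.348%, 0.272% and 0.100% of the 20994 genes ranked. Of the 100 most like the S-phase mean, 17 were mitotic genes, 12 replication genes and 1 a regulator.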

How the data were processed

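RNA was isolated with Trizol from primary mammary tumors, and libraries were made with the TruSeq Stranded Total RNA kit, per the labels. The authors deposited a table of 23609 genes whose values are a normalized signal: estimated counts per gene, scaled before deposition. The study's methods name median ratio scaling for other libraries of the study, and the columns of this table were checked to have nearly the same median ratio to their geometric mean. The submitters' processing notes name Partek, STAR 2.7.8a, DESeq2 and the build mm39; the counter and the annotation are not given in the sources used here. The values are fractions, whole reads could not be recovered, and the depth is unknown. Of the columns of values, 10 matched a labelled tumor by name, and 6 columns that matched none were not used.

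Values were taken to log2 after a pseudocount of 1, and 21034 genes with a mean of at least 10 were fitted with limma (3.58.1, R 4.3.3; 2 groups, variance trend, Benjamini-Hochberg adjustment over all of them). Differences and intervals are therefore on the log2(value + 1) scale. Single genes were also compared by a two-sided exact permutation test over the tumors. Scores are means of centered log2 values. Scripts were tested on simulated data. Transcript lengths come from a GENCODE mouse annotation, matched by gene ID for all 40 genes, and promoter sequences from RefSeq (GRCm38.p6). The annotation behind the deposited values is not given and may differ from the one used for the lengths.

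The values in every tumor are printed for the 4 S-phase and the 4 G2/M genes with the smallest unadjusted p and for Mcm2, Pcna, Mki67, Ccnb1, Cdk1 and Foxm1; of each other list the 4 genes with the smallest p are named, then the 10 and 5 genes with the highest r to the G2/M and S-phase means and pseudogene rows of members. Of the genes this rule names, 1 is not reported here. The members and lists were chosen with earlier results of these data known. Alternatives were another pseudocount, other filters, scalings, variance models and forms of the score (median over genes, log2 of summed values), the replicate number as a block, leaving out each tumor and, added after the data were seen, a correction for transcript length.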

Additional observations from a re-analysis of the deposited data

Results flagged for a closer look

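Of 88 groups of 5 values looked at (the 40 genes, Resf1 and the 3 scores, in each genotype), 2 held a tumor far from the other 4 of its group, where chance alone gives about 4.4. Mcm2 read 1496.0 in wildtype tumor 2, below the other wildtype tumors, which lay between 1598.2 and 1639.0. This value is still inside the range of the gene trap tumors. Nusap1 read 1488.1 in gene trap tumor 4, above the other gene trap tumors, which lay between 957.95 and 1087.9. The same tumor had the highest S-phase and G2/M scores of the 10, and in wildtype tumor 5 Nusap1 read 1500.6. What set either value was not tested.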

How the results depend on the processing

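In each of the 18 alternatives 0 genes had an adjusted p under 0.05 by limma, and 305 to 692 had an unadjusted p under 0.05. The direction of the fitted log2 fold change, gene trap against wildtype, changed in 89 of 720 fits and in 29 of the 40 genes. Leaving out each tumor in turn gave Aurkb -0.054 to 0.10, Bub1 -0.14 to 0.10, Bub1b -0.10 to 0.11, Ccna2 -0.12 to 0.076, Ccnb1 -0.15 to 0.074, Ccnb2 -0.14 to 0.030, Cdc20 -0.11 to 0.091, Cdk1 -0.14 to 0.048, Cdt1 -0.17 to 0.054. The same step gave Cenpe -0.17 to 0.072, Cenpf -0.21 to 0.014, Fen1 -0.0054 to 0.18, Foxm1 -0.12 to 0.056, Hmmr -0.19 to 0.020, Kif11 -0.18 to 0.041, Kif23 -0.048 to 0.13, Mcm2 -0.12 to 0.067, Mcm4 -0.074 to 0.026. It also gave Mcm5 -0.18 to 0.014, Mcm7 -0.031 to 0.12, Nusap1 -0.20 to 0.015, Pcna -0.066 to 0.051, Plk1 -0.042 to 0.18, Rrm2 -0.19 to 0.026, Top2a -0.13 to 0.061, Tpx2 -0.23 to 0.010, Ttk -0.14 to 0.017. It also gave Tyms -0.047 to 0.12, Ube2c -0.082 to 0.16. G2/M genes with an unadjusted p under 0.05 numbered 0 to 1, and the range of the balance over tumors was 0.15 to 0.33, when 1 tumor was left out. Every tumor changed the direction of some genes when left out: 14 genes for wildtype 5, 13 for gene trap 5, 11 for gene trap 2, 10 for gene trap 4, 9 for gene trap 3 and 3 to 5 for each of the others. Scores from the log2 of summed values widened the range of the balance to 0.42 and put gene trap tumor 2 at -0.18 in place of -0.05. Scaling to equal column totals gave Pcna -0.022, Cdc20 -0.021 and Bub1b -0.019, and placed the S-phase score of gene trap tumor 2 at -0.30 in place of -0.03. Quantile normalization gave Pcna -0.000513. Weights per tumor in limma gave Pcna -0.021, Tyms -0.046, Top2a 0.037, Ccna2 0.0072, Cdc20 -0.068, Bub1 0.062, Plk1 -0.062, Cenpe 0.00096 and Ube2c -0.080. The cause was not tested. The other settings (pseudocount, filter on low values, variance trend and the narrower promoter window) changed no direction among the 40 genes and moved no list median beyond the spread between tumors.

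With the replicate number as a replicate block, 0 of the 40 genes passed at either level, 426 of all genes had an unadjusted p under 0.05 and 0 an adjusted one. Tumors with the same number are different animals, and the correlations of their deviations were 0.103, -0.0030, -0.156, 0.149 and -0.142. These values show no common sign, and whether tumors with the same number share a litter or batch was not tested. The depth of reads behind the values is unknown, and 5 tumors per group limit the precision.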
